A study of Mus musculus with 6 samples.

Results

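Tryptases and carboxypeptidase A3 are proteases that mast cells, the tissue-resident immune cells that also store histamine, keep in their secretory granules. Of this family, 5 genes were taken by gene ID from the 47643 genes of the deposited count table: Cpa3, Tpsb2, Tpsab1, Tpsg1 and Prss34. The series sequenced the poly(A) RNA of skin mast cells of the mouse in 6 libraries. The 3 embryonic libraries (labelled PRIM) came from E16.5 fetal skin and were described by the submitters as yolk sac hemogenic endothelium derived. The 3 adult libraries (labelled DEF) came from adult skin and were described as definitive mast cells. Both groups came from Cdh5CreERT2 mice, in which an endothelial promoter drives a tamoxifen-inducible Cre, given 4-hydroxytamoxifen (4OHT) at embryonic day 7.5. The sort took CD45+ F4/80- CD64- cells that were c-Kit+, with ST2+ as the last gate in the embryo and Fcer1+ (the IgE receptor) in the adult. Adult skin had also gone through a Dispase step that took off the epidermis. The labels do not say whether the lineage label was used in the sort, what the strain was, or whether libraries of a group came from separate animals, so p-values measure only how these libraries vary, and that variation may be technical. The groups differ at once in age, in the origin described for them, in the last gate and in the Dispase step, and these cannot be told apart.

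In the granule, tryptases are serine proteases that cut after basic residues, and mast cell carboxypeptidase A3 removes aromatic and aliphatic residues from the C-terminal end of peptides. Both are stored on serglycin, a proteoglycan whose heparin chains bind the positively charged proteases. In mouse connective tissue mast cells, such as those of skin, Cpa3 and Tpsb2 are known as major granule products, and Prss34 is better known from basophils.

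The 5 genes did not move as a block. Cpa3, Tpsb2 and Prss34 were higher in embryonic libraries, by 3.01-fold, 2.09-fold and 351-fold. Tpsab1 and Tpsg1 were higher in adult libraries, by 3.04-fold and 1.24-fold. Of the 5 genes tested, 3 were therefore called higher in embryonic libraries, where 31.2% of the 15111 tested genes were, and 2 higher in adult libraries, where 31.7% were (edgeR quasi-likelihood test, adjusted p threshold 0.05). In either direction 63.0% of tested genes were called, so that 5 called genes of 5 say little about the family as a whole. The libraries of the 2 groups did not overlap for any of the 5, as was so for 70.0% of tested genes, and 4 of the 5 were called with at least a 2-fold change, as were 38.0%. The median log2 fold change of the 5 genes was 1.06, against -0.02 over all tested genes. In bulk libraries, fewer cells that express a gene and less of its RNA per cell cannot be told apart.

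Libraries held 34122162 to 46778093 gene counts in the embryonic group and 40662062 to 49813523 in the adult group. Defining mast cell markers were present in each library, and all 10 were above 0 in both groups. Their summed level ran from 76093 to 85157 CPM (counts scaled to library size) in the embryonic group and from 44717 to 48450 CPM in the adult group, most of it from Hdc, the histamine-forming enzyme, and Cma1. By gene, 3 of the 10 were called higher in the embryonic and 5 in the adult group, beside 31.2% and 31.7% of all tested genes. Their median log2 fold change was -0.64. Those higher in the adult group included the IgE receptor chains Fcer1a (5.84 ± 1.47 against 762 ± 186 CPM, SD, n = 3 each) and Ms4a2 (207 ± 11.2 against 1545 ± 120 CPM). The adult gate used this receptor. Embryonic replicate 3 stood apart in keratinocyte genes (501 CPM summed over 4 markers, where the lowest library had 15.8), and adult replicate 3 in fibroblast genes (88.3 CPM, where the highest library reached 662). Each result on the 5 genes was also computed without each of these libraries, which are named where a call changed.

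**Figure D1:**
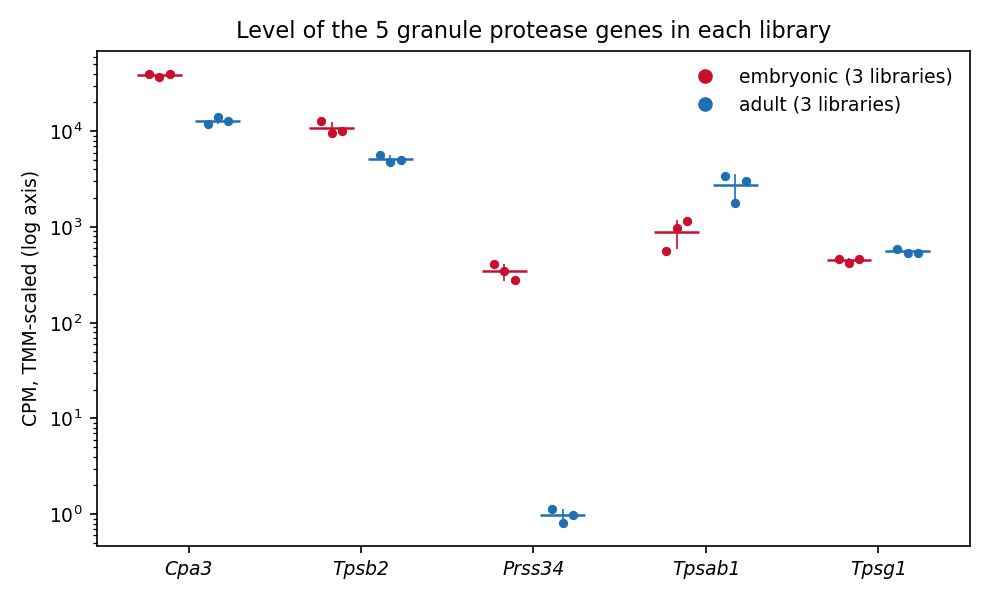
CPM scaled by TMM library sizes, on a log axis, for each gene in each library (points), with the mean (horizontal line) and the SD (vertical line) of the 3 libraries of a group. Embryonic and adult points lie apart for all 5 genes, and Prss34 falls from between 276 and 415 CPM in embryonic libraries to about 1 CPM in adult libraries.

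Cpa3 (ENSMUSG00000001865.2; GRCm38 chr3:20215620-20242181, minus strand, 1517 exon bases) encodes carboxypeptidase A3. Its level was 39745, 36889 and 39643 CPM in embryonic replicates 1 to 3 and 11820, 14004 and 12838 CPM in adult replicates 1 to 3. All embryonic libraries lay well above all adult ones, and the spread inside a group was small beside the gap. The means were 38759 ± 1621 CPM and 12887 ± 1093 CPM (SD, n = 3 each), a log2 fold change of 1.59 (SE 0.11, adjusted p = 1.3e-06 by edgeR). Cpa3 alone took 4.10%, 3.82% and 4.06% of all gene counts in embryonic libraries and 1.18%, 1.37% and 1.2% in adult ones. Per kilobase of exon it was among the 2 most abundant genes of every embryonic library and among the 3 most abundant of every adult library. Such coverage, up to 1253 counts per exon base, bears on a counting option: reads marked as duplicates were ignored, and whether duplicates had been marked is not given in the sources used here. Its effect on the Cpa3 fold change was not tested.

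Tpsb2 (ENSMUSG00000033825.9; chr17:25366550-25368094, plus strand, 1081 exon bases) encodes the tryptase known as mouse mast cell protease 6. Embryonic libraries held 12753, 9635 and 9974 CPM and adult libraries 5687, 4781 and 5047 CPM. The lowest embryonic library was still above the highest adult one. The means were 10788 ± 1711 and 5172 ± 466 CPM (SD, n = 3 each), with a log2 fold change of 1.06 (SE 0.13, adjusted p = 7.7e-05 by edgeR). Per exon kilobase it ranked number 3 among all genes in each embryonic library and number 5 or 6 in the adult ones.

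Tpsab1 (ENSMUSG00000024173.10; chr17:25343245-25345562, minus strand) encodes the tryptase known as mouse mast cell protease 7 and went the opposite way. It was at 560, 984 and 1143 CPM in embryonic libraries and at 3376, 1779 and 2999 CPM in adult ones. The groups did not overlap, but the spread relative to the mean was the largest of the 5 genes in both groups: embryonic replicate 1 and adult replicate 2 were each low for their group. The means were 895 ± 301 and 2718 ± 835 CPM (SD, n = 3 each), and the log2 fold change was -1.60 (SE 0.33, adjusted p = 0.0051 by edgeR). Left-out libraries and other settings moved that value between -1.84 and -1.33 without ending the call. As background, C57BL/6 mice carry a splice-site change in this gene and lack the protein, so its RNA level need not follow protein. RefSeq lists Tpsab1 as a transcribed pseudogene on the reference assembly, while GENCODE lists it as protein coding.

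Tpsg1 (ENSMUSG00000033200.16; chr17:25369273-25374442, plus strand, 1389 exon bases) encodes a tryptase that, unlike the soluble ones, keeps a membrane anchor. It was at 465, 423 and 460 CPM in embryonic and 594, 540 and 540 CPM in adult libraries. Here too the adult libraries were all higher, by a narrow margin. The means of 449 ± 23.1 and 558 ± 31.4 CPM (SD, n = 3 each) gave a log2 fold change of -0.31 (SE 0.10, adjusted p = 0.017 by edgeR). The call was lost without embryonic replicate 2 (adjusted p = 0.13, log2 fold change -0.22), without embryonic replicate 3 (0.053), without adult replicate 1 (0.059), and when genes with as little as 1 count were tested (0.089). Of its exon bases, 158 (11.4%) also lie in exons of Cacna1h on the other strand, where unstranded reads overlapping both genes were not counted.

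Prss34 (ENSMUSG00000056399.1; chr17:25298394-25300161, plus strand, 1216 exon bases) encodes mouse mast cell protease 11. It had 19321, 12133 and 13245 counts in embryonic libraries and 57, 35 and 37 counts in adult ones. These counts correspond to 415, 344 and 276 CPM against 1.15, 0.808 and 0.974 CPM, so each adult library held the transcript at a low but countable level. The means were 345 ± 69.3 and 0.976 ± 0.169 CPM (SD, n = 3 each), and the log2 fold change was 8.45 (SE 0.22, adjusted p = 6.6e-09 by edgeR). It ranked number 21 of 15111 tested genes by log2 fold change toward embryonic libraries, in a tail of 36 called genes (0.238%) with a log2 fold change of at least 8. The value stayed between 8.32 and 8.64 under all settings tried.

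Because Prss34 is also a basophil protease, the basophil markers are given beside it. Summed over 4 genes, they ran from 614 to 755 CPM in the embryonic group and from 680 to 791 CPM in the adult group, and none was at 0. Mcpt8, the basophil granzyme-like protease, was 3.70-fold higher in the embryonic group (25.2 ± 4.40 against 6.82 ± 0.458 CPM, adjusted p = 6.5e-06 by edgeR, n = 3 each). Itga2, an integrin also found on some mast cells, was higher in adult libraries, and Cd200r3 (403 ± 21.7 and 392 ± 54.6 CPM) and Il4 were not called. The part of other cells in the Prss34 difference was not tested.

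**Figure D2:**
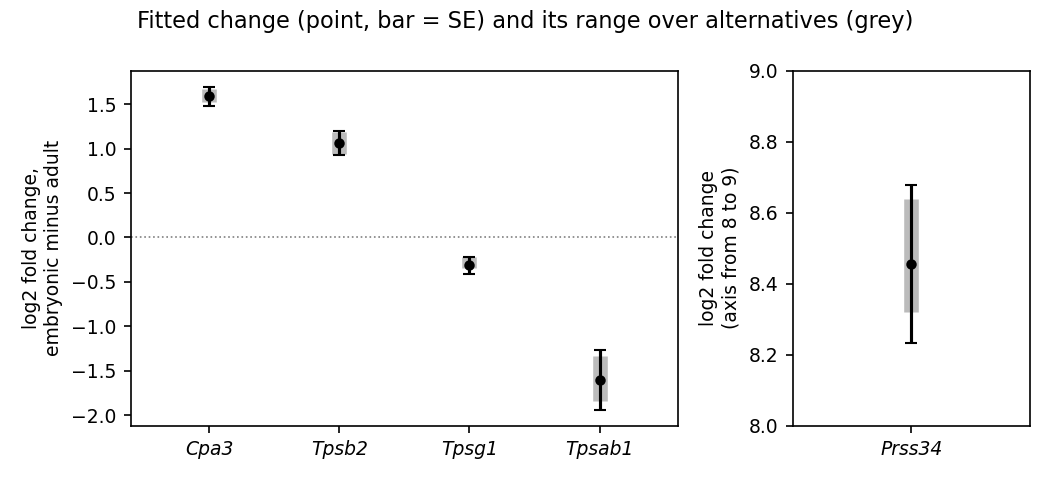
Fitted log2 fold change, embryonic minus adult, for each gene (point) with its standard error (bar), and the range of that value over the main and alternative settings (grey); Prss34 has an axis of its own from 8 to 9. Cpa3 and Tpsb2 lie above 0, Tpsab1 and Tpsg1 below it, and no setting moves any of the 5 across 0.

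The 4 tryptase-type genes lie close together on chromosome 17 and encode related proteins, which matters for assigning reads. Coding sequences, aligned from GENCODE M21 transcripts, were identical at 77.1% of aligned bases between Tpsb2 and Tpsab1, 67.0% between Tpsb2 and Tpsg1 and 64.9% between Tpsb2 and Prss34. The longest run of identical bases was 39 for Tpsb2 and Tpsab1. No stretch of 50 bases in the annotated transcripts of Tpsb2, Tpsab1, Prss34 or Cpa3 occurred in the transcripts of another gene. For Tpsg1, 7.60% of such stretches did, all in the overlapping Cacna1h. These are exact matches to reference transcripts only, and the read length is not given in the sources used here.

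The coding stretch around the catalytic serine codon is printed because all 4 genes can be lined up there without gaps, so that their differences can be read base by base. Each sequence is 60 bases of the coding strand, and capitals mark bases that differ from Tpsb2 at the same place, counted by position without gaps.
Tpsb2: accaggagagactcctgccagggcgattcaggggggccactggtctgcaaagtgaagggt
Tpsab1: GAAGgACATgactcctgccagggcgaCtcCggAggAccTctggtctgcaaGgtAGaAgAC
Tpsg1: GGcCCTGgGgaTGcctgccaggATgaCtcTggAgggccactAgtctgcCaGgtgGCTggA
Prss34: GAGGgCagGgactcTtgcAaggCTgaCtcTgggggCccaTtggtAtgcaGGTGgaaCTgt
In this stretch Tpsab1 differed from Tpsb2 at 19 of 60 bases, and Tpsg1 and Prss34 each at 21.

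Promoter sequence was at hand from RefSeq (GRCm38.p6) for 3 of the 5 genes, namely Cpa3, Prss34 and Tpsg1. GATA factors are known regulators of mast cell protease genes, so the 250 bases before each start were searched on both strands for GATA preceded by A or T and followed by A or G. The promoter set held 2 starts for Tpsg1, so 4 windows were searched. A match lay 46 bases before the start used in Cpa3, 31 in Prss34 and 93 in the upstream window of Tpsg1. The other window of Tpsg1 held none. RefSeq gene records of Cpa3 and Tpsg1 begin further upstream than the starts used, at chr3:20242209 and chr17:25369195. Both matches lie upstream of these positions too, but closer to them, and the windows reach into the annotated genes. Of 32851 windows of this length, 26.5% held a match. The E-boxes CACGTG and CACATG (the latter on either strand), which MITF can bind, occurred in 17.6% of windows, in that of Prss34 (at 100 bases before the start) and in none of the other 3. The 150 bases printed for the 2 genes with larger changes run 5′ to 3′ on the coding strand, with the GATA match in capitals. That of Prss34 ends 1 base before the start. That of Cpa3 ends 29 bases before the start used, just upstream of where its RefSeq gene record begins.
Prss34, chr17:25298244-25298393, plus strand: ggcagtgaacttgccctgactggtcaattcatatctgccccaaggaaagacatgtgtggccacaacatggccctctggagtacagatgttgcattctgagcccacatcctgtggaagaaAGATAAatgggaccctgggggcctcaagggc
Cpa3, chr3:20242210-20242359, minus strand: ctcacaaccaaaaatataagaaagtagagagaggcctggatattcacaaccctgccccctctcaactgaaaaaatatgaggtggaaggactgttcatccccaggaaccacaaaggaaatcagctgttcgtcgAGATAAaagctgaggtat
Tpsg1, with a match in 1 of its windows, was higher in adult libraries. All 3 genes searched held a match, so the search could not tell whether a match goes with direction. A match of letters is a description and not a binding site.

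Levels of different genes were compared per exon kilobase. Embryonic libraries ordered the genes as Cpa3 (25550 ± 1068 CPM per kb), Tpsb2 (9979 ± 1582), Tpsab1 (428 ± 144), Tpsg1 (323 ± 16.7) and Prss34 (284 ± 57.0; SD, n = 3 each). On this scale the last 3 of that order do not differ beyond their spread. In adult libraries the order was Cpa3 (8495 ± 720 CPM per kb), Tpsb2 (4784 ± 431), Tpsab1 (1298 ± 399), Tpsg1 (402 ± 22.6) and Prss34 (0.803 ± 0.139), with each step larger than the spread. Tpsab1 may be understated on this scale, because its 2094 merged exon bases include retained introns. How many of its reads lay in these introns was not examined. With the 1156 bases of its spliced transcript, a length added after the data were seen, it stood at 775 ± 261 and 2351 ± 722 CPM per kb in embryonic and adult libraries. All counts of the gene were kept for this, so these are upper values if some reads lay in the introns. Tpsab1 was then above Tpsg1 and Prss34 in every embryonic library, at 484, 851 and 988 CPM per kb.

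Ratios taken inside a library do not depend on scaling between libraries. Tpsab1 reached 2.27%, 5.27% and 5.91% of the Tpsb2 level per kilobase in embryonic libraries and 30.6%, 19.2% and 30.7% in adult libraries, a mean ratio 6.35-fold higher in the adult. These percentages use the merged exon length, and the fold does not depend on it. Embryonic replicate 1 was the lowest of the 6, and without it the log2 difference moved from -2.67 to -2.23. Tpsg1 reached 2.84%, 3.42% and 3.59% of Tpsb2 in embryonic and 8.13%, 8.79% and 8.32% in adult libraries, a 2.58-fold difference with little spread.

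Prss34 stood at 2.89%, 3.17% and 2.46% of Tpsb2 in embryonic libraries and at 0.0179%, 0.0150% and 0.0171% in adult ones. Tpsb2 itself was at 45.0%, 36.7% and 35.3% of the Cpa3 level in embryonic and at 67.5%, 47.9% and 55.2% in adult libraries, so that Cpa3 was the more abundant in all 6. For each of these 4 ratios the groups did not overlap, and the exact two-sided permutation test gave p = 0.1, the smallest that 3 against 3 libraries allow (0.1 also after Benjamini-Hochberg adjustment over the 4).

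**Figure D3:**
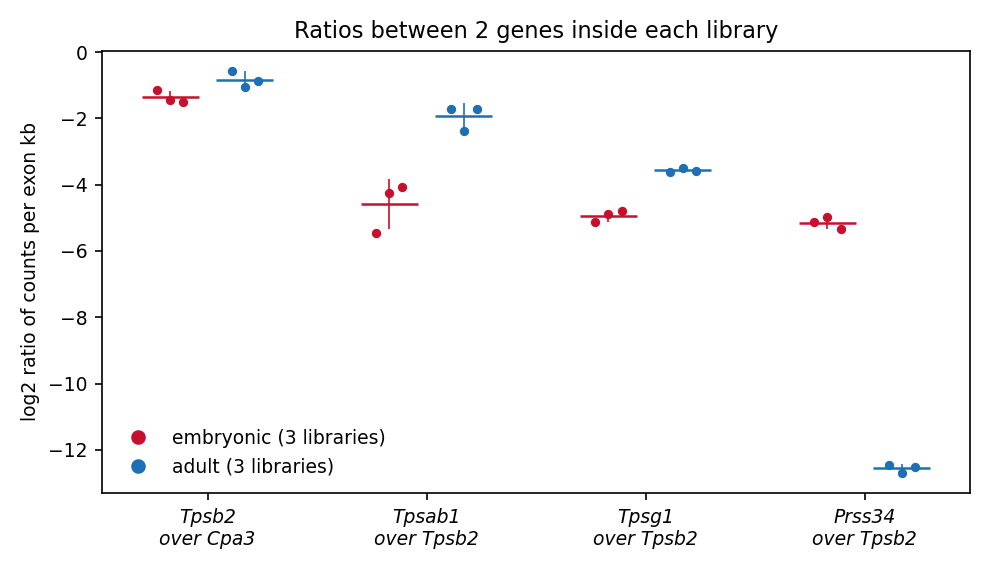
Log2 ratio of counts per exon kilobase between 2 genes of the same library (points), with the mean (horizontal line) and SD (vertical line) over the 3 libraries of a group. Relative to Tpsb2, Tpsab1 and Tpsg1 sit higher in adult libraries and Prss34 sits far lower, by a log2 difference of 7.41 between the groups.

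Seen as shares of the summed level of the 4 tryptase-type genes, Tpsb2 made up 92.6%, 89.4% and 89.3% in embryonic and 72.0%, 78.1% and 71.9% in adult libraries. Tpsab1 made up 2.10%, 4.71% and 5.28% in embryonic libraries and 22.1%, 15.0% and 22.1% in adult ones. Prss34 held 2.20% to 2.83% in embryonic libraries, close to the 2.63% to 3.2% of Tpsg1, and at most 0.0129% in adult libraries. With the spliced length of Tpsab1, its share became 3.74%, 8.22% and 9.17% in embryonic and 33.9%, 24.2% and 33.9% in adult libraries. Tpsb2 was the main tryptase transcript of every library with either length. Tpsab1 was in the second place in every library with the spliced length, and in all but embryonic replicate 1 with the merged length.

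**Figure D4:**
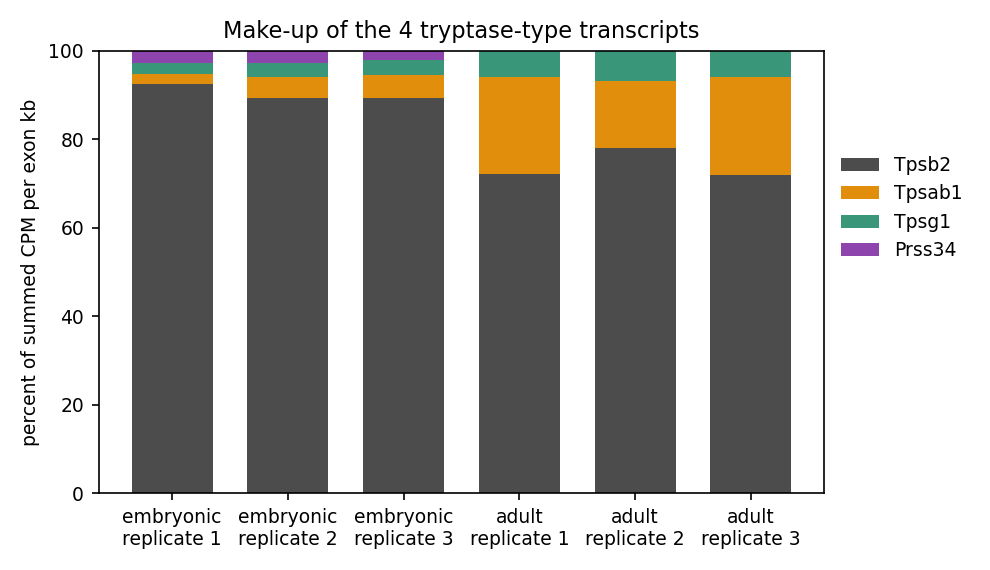
Percent of the summed CPM per exon kilobase of Tpsb2, Tpsab1, Tpsg1 and Prss34 in each library (stacked bars from 0 to 100), with the merged exon length of Tpsab1. Tpsb2 fills 89.3% to 92.6% of the embryonic bars and 71.9% to 78.1% of the adult bars, where Tpsab1 takes most of the rest.

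All 5 genes together took 5.57%, 4.99% and 5.28% of the gene counts of embryonic libraries and 2.14%, 2.06% and 2.0% of adult libraries. The means were 5.28% ± 0.286 and 2.07% ± 0.0711 (SD, n = 3 each; exact two-sided permutation p = 0.1, the smallest possible). Cpa3 made up most of this sum, so it says little about the tryptases.

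Related genes on the same chromosomes were read next. Of 9 other tryptase-like Prss genes of the same family on chromosome 17, 1 passed the filter on low counts: Prss28 (chr17:25308646-25311876), close to Prss34, which was called higher in embryonic libraries. It had 26, 31 and 25 counts in embryonic libraries and 0 in each adult library, at least 27.5-fold higher when set against 3 counts over the adult group, with TMM-scaled totals. Its level of 0.653 ± 0.196 CPM was far below the 345 CPM of Prss34. Prss21 and Prss29 had no count in any library. Only Prss28 and Prss29 of this list lie between Prss34 and Tpsab1, and the others lie further off, at chr17:23833360-24045954. Beside Cpa3 on chromosome 3 lies Cpb1, a pancreatic-type carboxypeptidase B, at 19.9 ± 5.66 CPM in the embryonic and 0.677 ± 0.321 CPM in the adult group, a 29.9-fold difference (log2 fold change 4.90, SE 0.38, adjusted p = 7.5e-06 by edgeR, n = 3 each).

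Other carboxypeptidases of the Cpa3 family showed no common direction. Of 11 tested, 3 were higher in embryonic and 1 in adult libraries, beside 31.2% and 31.7% of all tested genes. The other 7 were not called, and the median log2 fold change of the 11 was -0.27. Among the called genes were Cpm, higher in embryonic libraries, and Cpxm2, higher in adult libraries, both under 3 CPM on average. Cpm lost its call in 8 of 14 settings and came to a log2 fold change of 0.75 without embryonic replicate 3, and Cpxm2 lost its call in 1 setting.

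The chymase locus on chromosome 14 encodes the other large group of mast cell granule proteases. Of 8 tested genes, 4 were called toward the embryonic and 2 toward the adult group, beside 31.2% and 31.7% of all tested genes. The median log2 fold change of the 8 was 0.72. Cma1, a connective tissue mast cell chymase, was 2.97-fold higher in embryonic libraries, about as much as Cpa3 (log2 fold change 1.57, SE 0.12), and Mcpt2, a mucosal mast cell protease, was at 19.8 ± 1.77 against 4.5 ± 0.518 CPM, 4.39-fold higher in embryonic libraries. Mcpt4, a connective tissue chymase, was 6.90-fold and Ctsg, cathepsin G, 6.69-fold higher in adult libraries.

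Serglycin and the enzymes that build its heparin chains hold tryptases and Cpa3 in the granule. Of 17 tested genes, 10 were higher in embryonic libraries and 4 in adult libraries, beside 31.2% and 31.7% of all tested genes. The other 3 were not called, and the median log2 fold change of the 17 was 0.42. Srgn, the serglycin core protein, was at 2776 ± 298 and 1334 ± 96.3 CPM, 2.08-fold higher in embryonic libraries (adjusted p = 2.8e-05 by edgeR, n = 3 each), close to the 2.09-fold of Tpsb2. Hs3st1, a heparan sulfate 3-O-sulfotransferase, was 4.65-fold and B3galt6, an enzyme of the linker to the core protein, 2.80-fold higher there. Hs6st1, a 6-O-sulfotransferase, was 3.71-fold higher in adult libraries.

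Cathepsins, among them cathepsin C, were listed with legumain (Lgmn). Of 9 tested genes, 4 were called in each direction (median log2 fold change 0.14), beside 31.2% and 31.7% of all tested genes. Legumain was among the 4 higher in adult libraries. Ctsc, cathepsin C, was at 1136 ± 58.7 and 526 ± 43.7 CPM, 2.16-fold higher in embryonic libraries (adjusted p = 9.8e-06 by edgeR, n = 3 each). Ctsz was 5.49-fold higher there as well. Ctsl was 3.11-fold higher in adult libraries. Ctss was also higher in adult libraries, at 25.4 ± 9.23 CPM against 0, 1 and 14 counts in the embryonic ones. Macrophage markers, which go with Ctss in tissue, summed over 7 genes to between 15.9 and 42.6 CPM in the embryonic and between 155 and 239 CPM in the adult group, and their part in the Ctss difference was not tested.

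Among protease inhibitors, 2 of 9 tested genes were called toward the embryonic and 5 toward the adult group (median log2 fold change -0.76). Over all tested genes these shares were 31.2% and 31.7%. Lxn, latexin, an inhibitor of carboxypeptidases of the Cpa3 type, was at 422 ± 31.9 and 208 ± 3.92 CPM, 2.03-fold higher in embryonic libraries (adjusted p = 1.0e-05 by edgeR, n = 3 each). The serpins Serpinb6a and Serpinb1a were 7.98-fold and 1.73-fold higher in adult libraries, and so was the cystatin Cstb, by 2.13-fold.

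Protease-activated receptors, which proteases switch on by cutting them, were listed with endothelin, neurotensin and their receptors, peptides that mast cell carboxypeptidase can degrade. Of 6 tested genes, 4 were called toward the adult and 1 toward the embryonic group (median log2 fold change -1.33). Over all tested genes 31.7% were called toward the adult and 31.2% toward the embryonic group. F2r, the thrombin receptor of the protease-activated receptor family, was at 7.0 ± 0.896 and 252 ± 29.3 CPM, 35.9-fold higher in adult libraries (adjusted p = 6.7e-09 by edgeR, n = 3 each), and F2rl2 of the same family was 4.28-fold higher. Edn1, endothelin 1, a peptide that mast cell proteases degrade, was called higher in the adult at under 1 CPM. Ednrb, an endothelin receptor, was 16.2-fold higher in embryonic libraries. F2rl1, the receptor best known as a tryptase target, did not pass the filter, with 0, 1 and 6 counts in embryonic and 10, 4 and 0 counts in adult libraries; it was singled out after its values were seen.

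Of 22 mast cell transcription factors tested, 4 were higher in embryonic and 10 in adult libraries, beside 31.2% and 31.7% of all tested genes. The other 8 were not called, and the median log2 fold change of the 22 was -0.20. Erg was 3.51-fold higher in embryonic libraries, while Lmo2 (13.0-fold), Bhlhe40 (7.38-fold), Runx1 (4.93-fold) and Stat5a (3.18-fold) were higher in adult ones. Gata2 and Gata1, the factors named for the motif searched above, were higher in embryonic libraries by 1.5-fold and 2.20-fold, with levels of 3668 ± 348 against 2452 ± 316 CPM and 157 ± 21.1 against 71.5 ± 5.32 CPM. Mitf was at 121 ± 9.70 and 113 ± 15.2 CPM and was not called (adjusted p = 0.46 by edgeR, n = 3 each). Gata1, Gata2 and Mitf were picked for the motifs and not by size of change.

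**Figure D5:**
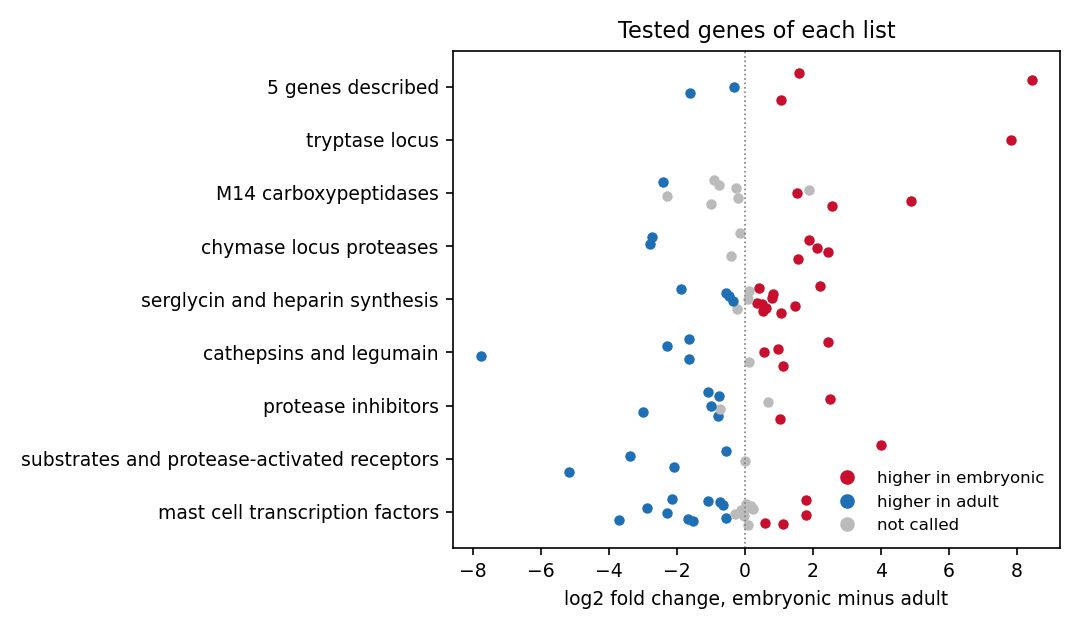
Log2 fold change, embryonic minus adult, of the tested genes of each list (points), coloured by the call at an adjusted p threshold of 0.05. Each list holds points on both sides of 0 except the list labelled tryptase locus, where Prss28 was the only gene tested and its fitted value depends on adult counts of 0.

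For each of the 5 genes, the 3 genes with the most similar pattern were found over the 6 libraries, among 7358 genes of at least 20 CPM on average in 1 group, by the root mean square (RMS) distance of log2 CPM centred on each gene's own mean. No 2 of the 5 genes were among each other's nearest. The closest pair of them, Tpsb2 and Cpa3, lay 0.32 apart, while Tpsb2 and Tpsab1 lay 1.42 apart. Nearest to Cpa3 were Kif1bp (0.05), Depdc1b (0.06) and Cryzl2 (0.06), and nearest to Tpsb2 were Polr3k (0.03), Cmtm7 (0.03) and Cdc34 (0.06). The genes nearest to Tpsg1 were Ptov1, Pld3 and Tapbp, each at 0.05. Tpsab1 had less close neighbours in Pitpnm1 (0.20), Csf2rb2 (0.22) and Gm20559 (0.22), in step with its larger spread. Prss34 was most like Slc22a3 (0.25), an organic cation transporter at 358 ± 28.8 CPM in the embryonic and 0.870 ± 0.0817 CPM in the adult group, then Foxh1 (0.26) and Cx3cr1 (0.32). The adult mean of Foxh1, 0.0463 CPM, was below the level of 3 counts in an adult library (0.0603 to 0.0789 CPM). Its distance therefore rests in part on very few counts and on the pseudocount of 0.01 CPM.

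Markers of other cells were far below Cpa3 and Tpsb2 in every library, but the sums of some lists were above the level of Tpsg1 or Prss34, and they were not equal between the groups. Mucosal mast cell markers (2 genes) summed to between 19.2 and 26.5 CPM in the embryonic and between 4.61 and 5.63 CPM in the adult group. With the embryonic group again given before the adult, eosinophil markers (5 genes) summed to 26.7 to 30.8 and 4.57 to 5.35 CPM, with Epx at 0 in all libraries and Prg3 at 552, 364 and 442 against 0, 1 and 2 counts. Prg3 and Siglecf were called higher in the embryonic group, and Ccr3 in the adult (3, 1 and 0 against 19, 17 and 10 counts). Neutrophil markers (5 genes) reached at most 0.368 and 0.603 CPM, with 3 and 2 of the 5 at 0 throughout the group. T cell markers (5 genes) summed to 3.36 to 4.31 and 1.0 to 1.61 CPM, endothelial markers (4 genes) to 24.9 to 32.1 and 2.50 to 6.40 CPM, and erythroid markers (3 genes) to 44.0 to 107 and 0.974 to 3.26 CPM. Fibroblast markers (5 genes) summed to 540 to 662 and 88.3 to 492 CPM, and keratinocyte markers (4 genes) to 49.7 to 501 and 15.8 to 39.4 CPM. Among the fibroblast genes only Dcn was called, and it was higher in adult libraries (21.6 ± 8.58 against 102 ± 63.1 CPM). The part of all these markers in the differences of the 5 genes was not tested, apart from leaving out single libraries.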

How the data were processed

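The authors deposited raw gene-level counts. FeatureCounts 1.5.0-p1 had summed exon reads over GENCODE M9 gene models, unstranded (setting 0) and skipping marked duplicates, per the file headers. Multi-mapping reads and reads shared by several genes were left out. Per the submitters' processing notes, STAR, featureCounts and edgeR were used with GRCm38 (mm10). Per the labels' protocols, cDNA was made with SMART-Seq v4 and libraries with Nextera XT. The reads carry no molecular identifiers. Exon length per gene was used as deposited.

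Symbols came by gene ID from GENCODE M21, on the same assembly; 47224 IDs matched and 419 did not. The 6 libraries were fitted in edgeR 4.0.16 under R 4.3.3 (counts as deposited, TMM, filterByExpr with a minimum count of 10, robust quasi-likelihood fit, Benjamini-Hochberg over 15111 genes, threshold 0.05). A standard error is the log2 fold change divided by the square root of F. The biological coefficient of variation was 22.5%. CPM used TMM-scaled library sizes. Over all genes the log2 fold changes centred on -0.02 with TMM and RLE and on -0.04 with upper quartile scaling. Between libraries of a group, the chi-square statistic per degree of freedom was 34.3 to 89.1, and each library counted as 1 replicate. Exact permutation tests used SciPy 1.17.1, and coding sequences were aligned with Biopython 1.88. Fitting was tested on simulated data.

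In each list, the text names the 4 tested genes with the smallest adjusted p under 0.05 and the best gene of the rarer direction where calls went both ways; 1 gene that this rule named is not reported here. The 3 nearest genes of each protease gene used a pseudocount of 0.01 CPM. The 5 genes, the lists and the rules were chosen with earlier results of these data known. Other settings tried were DESeq2 1.42.0, limma-voom (limma 3.58.1), RLE or upper quartile scaling, a filter of only 1 count in all, a filter of 1 CPM in 3 libraries, a non-robust fit, a block on the replicate number, leave-one-out fits, 2-fold and 0.01 thresholds, and for ratios and shares 1 added count and TMM-scaled totals.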

Additional observations from a re-analysis of the deposited data

How the results depend on the processing

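Under every alternative tried, Cpa3, Tpsb2 and Prss34 stayed called higher in embryonic libraries and Tpsab1 in adult libraries at the 0.05 threshold, and none of the 5 genes changed direction. Tpsg1 was the exception for the call. The number of the 5 genes called higher in adult libraries was therefore 1 in place of 2 when genes with at least 1 count were tested, when a change of at least 2-fold was required and at an adjusted p under 0.01, and it was 1 to 2 when each library was left out in turn. The log2 fold change ran from 1.52 to 1.67 for Cpa3, from 0.94 to 1.19 for Tpsb2 and from -0.34 to -0.22 for Tpsg1. Over all genes, 4660 were called higher in embryonic and 4766 in adult libraries by DESeq2, against 4722 and 4797 by edgeR.

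With the replicate number as a block (replicate block), 4379 and 4469 genes were called and the 5 genes kept their calls, 3 and 2. Libraries of the same number did not deviate together (correlations -0.109, -0.0905 and -0.117), and no library correlated best with its own number, so the numbers were not taken as pairs. With 1 library left out, the ratios and shares cannot give an exact p under 0.2. The adult Prss34 level rests on 35 to 57 counts a library, and Prss28, with 0 adult counts, allows only a lower bound. That bound sets 3 counts over the adult group and takes the embryonic counts as observed, so it leaves out variation between libraries.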
